A study of Sus scrofa with 23 samples.

Results

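Coronary artery segments with moderate lesions were set against segments with mild lesions in pigs without diabetes, across all genes that carry a name in the authors' deposited table. That table has 35252 lines, of which 24 carry a date as their name and were not used, so 35228 genes remain. DESeq2 gave 18561 of these an adjusted p-value, and these are called tested here. The comparison holds 8 of the 23 libraries of the series: 4 from moderate and 4 from mild segments of 3 mm, cut from coronary arteries of hypercholesterolemic Yorkshire swine, graded by histopathology and taken from non-diabetic animals. Every animal of both groups was hypercholesterolemic, and mild is the lowest lesion grade of the series, so the mild segments do not stand for healthy artery. The labels give no age, and they tie no segment to an animal. The p-values therefore reflect variation among segments. If a group holds several segments of 1 animal, the p-values tend to be too small. If 1 animal gave segments to both groups, a test without that pairing can make them too large. The other groups of the series, used below for levels alone, are severe lesions without diabetes and moderate and severe lesions with diabetes.

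In an atherosclerotic lesion, macrophages take up modified lipoprotein and become foam cells. Their lysosomes split the lipid and the cell debris, efflux transporters pass cholesterol on to lipoprotein particles, and secreted proteases cut the surrounding matrix. The normal coronary wall is made of endothelium, contractile smooth muscle and an outer layer of fibroblasts with small vessels, lymphatics, nerves and fat, and it lies on heart muscle.

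RNA had been isolated with Trizol, poly-A selected and primed at random, and the authors gave each gene a mean normalized count per group. These means are the authors' values over 4 libraries each, the values of single libraries are not used here, and the number of segments that share a direction cannot be given. Steps among the lowest means put the libraries at about 6720000 to 14300000 reads in the moderate and 8320000 to 13100000 reads in the mild group. From the standard errors, the variation between libraries that the fit assumed for a gene had a median of 21.8% in each group, over 13363 tested genes with a mean of at least 50. DESeq2 fits 1 dispersion per gene across groups, so these equal medians do not show that the groups vary alike. The defining genes of the artery wall were abundant in both groups. The smooth muscle actin ACTA2 averaged 36995 normalized counts in moderate and 39101 in mild segments, and the smooth muscle myosin MYH11 averaged 11668 in moderate and 12201 in mild segments. The endothelial gene VWF_1 averaged 685 in moderate and 870.3 in mild segments. None of these passed the test in the authors' deposited table, with adjusted p of 0.952 for MYH11, 0.929 for ACTA2 and 0.689 for VWF_1. The check also held the smooth muscle genes TAGLN and CNN1 and the endothelial gene PECAM1. TAGLN (-0.24, adjusted p = 0.760) and CNN1 (-0.53, adjusted p = 0.270) were not called in the authors' deposited table, whereas PECAM1 was called lower, as given below.

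At an adjusted p under 0.05 in the authors' deposited table, 660 genes (3.56% of those tested) were higher in moderate than in mild segments and 200 (1.08%) were lower. These are the genes called here. By size, 378 of the genes called higher and 114 of those called lower differed by at least 2-fold, 110 genes called higher and 14 called lower by at least 4-fold, and 43 called higher and 1 called lower by at least 8-fold. The median log2 fold change was 1.14 among genes called higher and -1.07 among genes called lower, against 0.00 over all genes tested. Among genes with a symbol, MMP9, CHI3L1 and CYP7A1 had the smallest adjusted p of the rises and PECAM1, of endothelium, that of the falls. Where a gene of 1 cell type was lower or higher, fewer or more cells of that type and a change of RNA per cell cannot be told apart in whole segments.

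**Figure D1:**
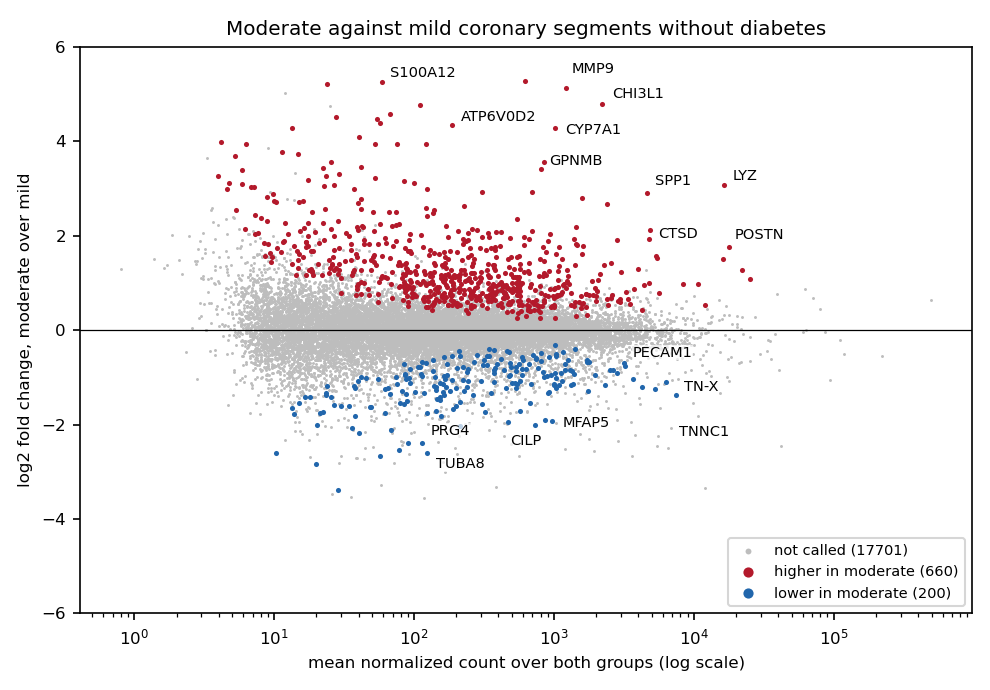
Log2 fold change of moderate over mild segments (vertical axis) against the mean normalized count over both groups (horizontal axis, log scale) for the 18561 genes tested, with 660 genes called higher in red and 200 called lower in blue. The genes called higher reach a log2 fold change above 5 (S100A12 at 5.27), while the labelled falls stay above -3 (TUBA8 at -2.61), and the heart muscle gene TNNC1 at -2.07 was not called.

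The largest rises were sought among called genes that have a symbol and average 20 or more normalized counts across the 8 libraries. MMP9, a gelatinase that degrades matrix (chr17:48179690-48186782, build Sscrofa11.1), averaged 2351 normalized counts in moderate and 67.2 in mild segments. S100A12, a calcium-binding calgranulin of neutrophils, averaged 114 in moderate and 2.90 in mild segments, 38.5-fold higher by the authors' deposited table. CHI3L1 (chr9:113885541-113895033), a lectin related to chitinases that macrophages and smooth muscle release, averaged 4244 in moderate and 154 in mild segments, which the authors' deposited table puts at 27.6-fold. The adjusted p in the authors' deposited table was 7.86e-25 for MMP9 and 1.08e-21 for CHI3L1.

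ARG1, the arginase that turns arginine into ornithine and urea, averaged 129.6 in moderate and 5.49 in mild segments. The authors' deposited table gives ARG1 a log2 fold change of 4.58 ± 0.80 (SE, as after every ± below), the widest error among the 12 largest rises apart from MMP12 at 4.10 ± 0.83. MMP12 is the macrophage elastase, and it averaged 76.0 in moderate and 4.36 in mild segments. TREH, the enzyme that splits trehalose, averaged 229.7 in moderate and 14.9 in mild segments, and HRK, a BH3-only protein that promotes apoptosis, averaged 141 in moderate and 9.12 in mild segments. Both stood at 3.95 ± 0.50 in the authors' deposited table, with adjusted p of 3.11e-12 for TREH and 3.45e-12 for HRK.

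CYP7A1, the rate-limiting enzyme of bile acid synthesis in the liver, averaged 1924 in moderate and 99.1 in mild segments (4.28 ± 0.41, adjusted p = 1.81e-21 in the authors' deposited table). Its place on the reference table, chr4:74343101-74372628, shares 14620 bases with SDCBP, which codes for the adaptor protein syntenin. SDCBP averaged 4147 in moderate and 2374 in mild segments, 0.80 on the log2 scale in the authors' deposited table with an adjusted p of 0.0111. How the authors assigned reads in shared stretches and whether they used the strand is not given in the sources used here, so the value of CYP7A1 is uncertain.

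**Figure D2:**
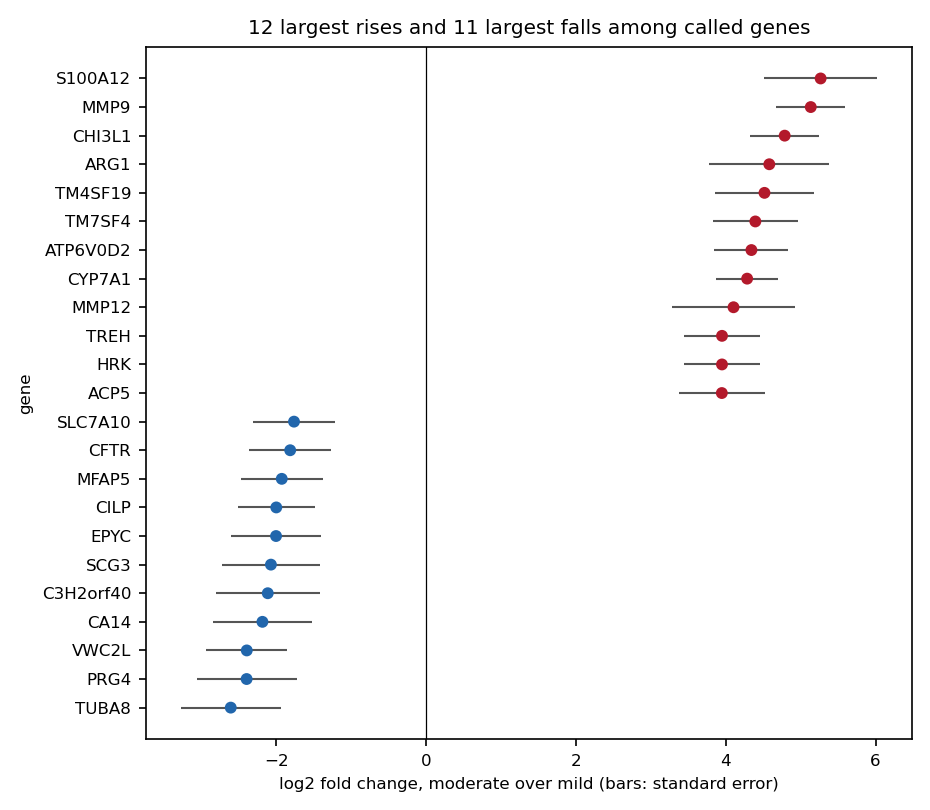
Log2 fold change of moderate over mild segments with its standard error (horizontal axis) for the 12 largest rises in red and the 11 largest falls in blue of called genes that have a symbol and average 20 or more normalized counts. The rises lie between 3.95 (ACP5) and 5.27 (S100A12), and the falls between -1.76 (SLC7A10) and -2.61 (TUBA8).

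Most genes of the list for lipid-loaded macrophages were called higher. Of 14 tested genes of the foam cell list, 9 were called higher and 0 lower, with a median log2 fold change of 1.44 against 0.00 over all genes tested. GPNMB, a glycoprotein of lysosomes in lipid-loaded macrophages, averaged 1465 normalized counts in moderate and 138 in mild segments, 10.7-fold higher by the authors' deposited table (adjusted p = 2.77e-16). Galectin 3, listed as the numbered copy LGALS3_1, averaged 4100.4 in moderate and 645 in mild segments. SPP1, which codes for osteopontin, a secreted phosphoprotein of macrophages and smooth muscle, averaged 8144 in moderate and 1093 in mild segments, a 7.45-fold difference in the authors' deposited table. A pair of scavenger receptors that take up modified lipoprotein rose. MSR1 averaged 2182 in moderate and 576 in mild segments, and OLR1 averaged 309 in moderate and 98.5 in mild segments. The authors' deposited table gives 1.92 ± 0.29 for MSR1 and 1.66 ± 0.39 for OLR1, with adjusted p of 6.06e-09 for MSR1 and 0.00116 for OLR1. A further receptor of this kind, CD36, averaged 6566 in moderate and 9926 in mild segments, and CD5L, a secreted protein of macrophages, averaged 5.76 in moderate and 16.7 in mild segments. These were the members below 0, and neither was called, with adjusted p of 0.396 for CD36 and 0.250 for CD5L in the authors' deposited table.

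Cholesterol export genes were also higher. Of 15 tested genes of the efflux list, which holds targets of the sterol receptor LXR, 6 were called higher and 0 lower, and all 15 had a log2 fold change above 0, with a median of 0.56. APOE, the apolipoprotein that carries cholesterol away from cells, averaged 8034 in moderate and 2801 in mild segments (1.52 ± 0.35 in the authors' deposited table). The exporter ABCG1 averaged 725 in moderate and 329 in mild segments, and the exporter ABCA1 averaged 4136 in moderate and 2614 in mild segments. These correspond to 2.20-fold for ABCG1 and 1.58-fold for ABCA1 in the authors' deposited table. NR1H3, the LXR alpha receptor itself, averaged 628 in moderate and 348 in mild segments (adjusted p = 0.0108 in the authors' deposited table). Cholesterol synthesis genes counted 1 called higher and 1 lower of 18 tested (5.56% each, against 3.56% and 1.08% of all genes tested). Most had small falls, with a median of -0.18, 15 below 0 and 3 above. INSIG1, which holds back the synthesis of sterols, was called higher (1.30 ± 0.32), and the squalene synthase FDFT1 was called lower (-0.45 ± 0.11) in the authors' deposited table.

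The lysosome was represented by 5 of its proton pump genes, 12 of its hydrolases and 4 of its membrane and biogenesis genes, all called higher. Of 31 tested acid hydrolases and their activators, 30 had a log2 fold change above 0 and 0 were called lower, with a median of 0.54. PSAP, the precursor of the saposins that present sphingolipids to hydrolases, averaged 31070.4 in moderate and 12845 in mild segments, and GM2A, the activator of ganglioside breakdown, averaged 1761 in moderate and 726 in mild segments. The authors' deposited table gives 1.27 ± 0.30 for PSAP and 1.28 ± 0.32 for GM2A. DNASE2, which digests DNA in lysosomes, averaged 686 in moderate and 271 in mild segments, 2.53-fold higher by the authors' deposited table. The tartrate-resistant acid phosphatase ACP5 changed more than these, with 98.2 in moderate and 6.55 in mild segments and a 15.4-fold difference in the authors' deposited table.

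Of the 16 tested subunits of the V-type proton pump, which acidifies lysosomes, 5 were called higher and 0 lower, with a median of 0.53. ATP6V0D2, a subunit isoform known from osteoclasts and macrophages, averaged 356 in moderate and 17.9 in mild segments, 20.3-fold higher by the authors' deposited table (adjusted p = 3.52e-15). TCIRG1, the a3 subunit of the same cells, averaged 582 in moderate and 178 in mild segments. The widely used subunits ATP6V1A (1.25 ± 0.25), ATP6V0C (0.76 ± 0.20) and ATP6V0A1 (0.71 ± 0.19) were called higher too in the authors' deposited table. Of 21 tested lysosomal membrane and biogenesis genes, 4 were called higher and 0 lower, with a median of 0.28. LAPTM5, a lysosomal membrane protein of blood cells, averaged 3286 in moderate and 1269.6 in mild segments, and the mannose 6-phosphate receptor IGF2R averaged 3143 in moderate and 1966 in mild segments. The authors' deposited table puts LAPTM5 at 2.59-fold and IGF2R at 1.6-fold.

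Of 14 tested cathepsin and cystatin genes 7 were called higher and 0 lower, with a median of 0.80. Cathepsin D, an aspartic protease, had a mean for CTSD of 7856 normalized counts in moderate and 1792 in mild segments, a 4.38-fold difference in the authors' deposited table. The elastin- and collagen-cutting cathepsin S averaged 7577 in moderate and 1993 in mild segments (CTSS), and cathepsin K averaged 7969 in moderate and 2668 in mild segments (CTSK). Their log2 fold changes in the authors' deposited table were 1.93 ± 0.34 for CTSS and 1.58 ± 0.42 for CTSK. Cathepsin B averaged 14219 in moderate and 7198 in mild segments (CTSB, 0.98 ± 0.26 in the authors' deposited table). CSTB, an inhibitor of these proteases, was called higher too, with 694 in moderate and 243 in mild segments and 1.52 ± 0.32 in the authors' deposited table.

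Of 15 tested matrix metalloproteinases and their TIMP inhibitors, 4 were called higher and 0 lower, and the median was 0.12. Beside MMP9 and MMP12, the membrane-bound collagenase MMP14 averaged 4783 in moderate and 2614 in mild segments (0.87 ± 0.25 in the authors' deposited table). MMP19 averaged 369 in moderate and 197 in mild segments, and its adjusted p of 0.0462 in the authors' deposited table came to 0.0744 once every gene with a p was included in the adjustment. Below, this is called the wider adjustment. Of 26 tested ADAM and ADAMTS proteases, 4 were called higher and 1 lower, with a median of -0.02. ADAM28, a surface protease of lymphocytes and macrophages, averaged 1123 in moderate and 263 in mild segments, and ADAM8, one of myeloid cells, averaged 86.2 in moderate and 14.9 in mild segments. The authors' deposited table gives 2.10 ± 0.26 for ADAM28 and 2.51 ± 0.42 for ADAM8. ADAMTS4, which cuts the proteoglycans aggrecan and versican, averaged 183 in moderate and 83.0 in mild segments (adjusted p = 0.0261 in the authors' deposited table).

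Genes known from bone-resorbing osteoclasts were among the largest rises. Of 13 tested genes of that list, 5 were called higher and 0 lower, with a median of 0.61. TM7SF4, an older name of the fusion protein DC-STAMP, averaged 109 in moderate and 5.03 in mild segments, 21.0-fold higher by the authors' deposited table. The membrane protein TM4SF19 averaged 53.1 in moderate and 2.45 in mild segments, and the osteoclast receptor SIGLEC15 averaged 21.3 in moderate and 1.5 in mild segments. The authors' deposited table gives 4.52 ± 0.66 for TM4SF19 and 3.77 ± 0.94 for SIGLEC15. The calcitonin receptor CALCR averaged 365 in moderate and 124 in mild segments, with an adjusted p of 1.80e-06 in the authors' deposited table. TNFRSF11B, the decoy receptor osteoprotegerin that holds back osteoclast formation, was called higher as well, with 247 in moderate and 120.3 in mild segments and 1.04 ± 0.25 in the authors' deposited table.

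**Figure D3:**
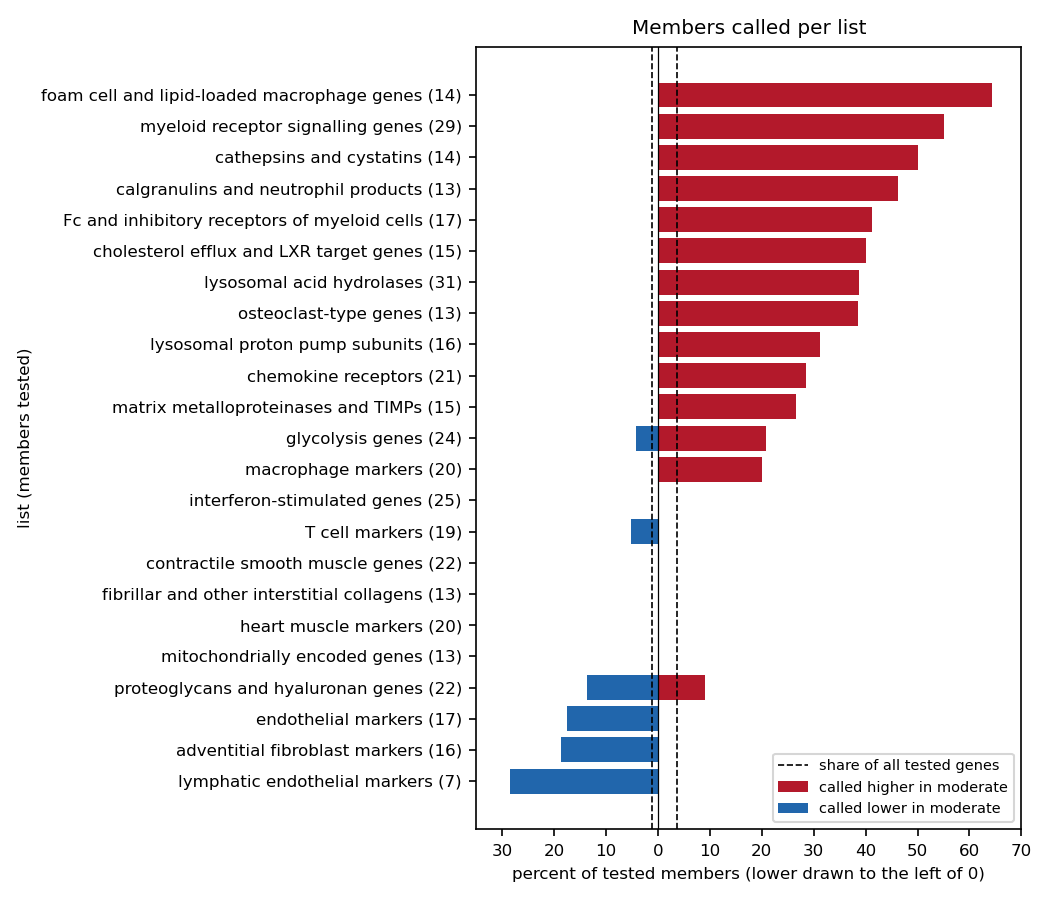
Percent of tested members called higher (red, right of 0) and called lower (blue, left of 0) in moderate against mild segments for 23 lists, with the number of tested members in brackets and dashed lines at the shares of all tested genes, 3.56% and 1.08%. The bar of the foam cell list reaches 64.3% called higher, the 7 lymphatic markers reach 28.6% called lower, and smooth muscle, collagen, heart muscle, mitochondrially encoded and interferon-stimulated lists have no bar.

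Calgranulins and neutrophil products counted 6 called higher and 0 lower of 13 tested, with a median of 1.11. The neighbouring calgranulin genes of chromosome 4 were each called higher. S100A8 averaged 25.3 in moderate and 1.41 in mild segments, and S100A9 averaged 27.9 in moderate and 4.30 in mild segments. Their means were low, and their log2 fold changes in the authors' deposited table carry wide errors, 4.29 ± 0.95 for S100A8 and 2.75 ± 0.79 for S100A9. TCN1, a vitamin B12 carrier stored in neutrophil granules, averaged 178 in moderate and 20.6 in mild segments. CSF3R, the receptor for the granulocyte growth factor, averaged 193 in moderate and 63.9 in mild segments (1.59 ± 0.33 in the authors' deposited table).

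Of 20 tested general macrophage markers, 4 were called higher (20%, against 3.56% of all genes tested) and 0 lower, with a median of 0.15. Their log2 fold changes were above 0 for 11 and below 0 for 9, the lowest at -1.46. The list took 0.169% of counts in moderate and 0.160% in mild segments. The called markers were the costimulatory molecule CD86 (1.41 ± 0.24), AIF1 (1.27 ± 0.37), the complement receptor VSIG4 (1.07 ± 0.25) and MERTK, a receptor for dying cells (0.59 ± 0.17), in the authors' deposited table. Lysozyme, the secreted bacteriolytic enzyme of myeloid cells, had the largest absolute difference of means among called genes with a symbol, with LYZ at 29406 in moderate and 3468 in mild segments, 8.48-fold in the authors' deposited table. Dendritic cell markers counted 2 called higher and 0 lower of 9 tested. XCR1, a chemokine receptor of cross-presenting dendritic cells, averaged 229 in moderate and 88.1 in mild segments, although its place on the reference table shares 6585 bases with that of CCR1.

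The list of myeloid receptor signalling genes, which also holds cytoskeletal and surface proteins of leukocytes, had 16 called higher and 0 lower of 29 tested. Its median was 0.90, with 28 log2 fold changes above 0. MYO1F, a myosin of leukocytes, averaged 837 in moderate and 282 in mild segments, and LCP1, the actin-bundling plastin of leukocytes, averaged 4440.3 in moderate and 1189 in mild segments. The authors' deposited table gives 1.57 ± 0.20 for MYO1F and 1.90 ± 0.26 for LCP1. The common leukocyte phosphatase PTPRC averaged 1559 in moderate and 610.4 in mild segments, and the Fc receptor gamma chain FCER1G averaged 384 in moderate and 129 in mild segments. Of 17 tested Fc and inhibitory receptors of myeloid cells, 7 were called higher and 0 lower, with a median of 0.99. The lectin receptor CLEC5A averaged 75.9 in moderate and 7.33 in mild segments, and the beta-glucan receptor CLEC7A averaged 83.6 in moderate and 19.7 in mild segments. These stood at 3.46 ± 0.50 for CLEC5A and 2.10 ± 0.36 for CLEC7A in the authors' deposited table. Of 22 tested transcription factors of the same lineage 6 were called higher and 0 lower, with a median of 0.52, among them SPI1, which codes for PU.1 (0.79 ± 0.21 in the authors' deposited table).

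Single markers of lymphoid cells were called, in short lists where 1 gene is a share above the 3.56% and 1.08% of all genes tested. Of 19 tested T cell markers 0 were called higher and 1 lower, and the median was 0.32. CD8B, the beta chain of the cytotoxic coreceptor, averaged 265 in moderate and 869.5 in mild segments (-1.71 ± 0.54 in the authors' deposited table), and its adjusted p of 0.0358 came to 0.0578 under the wider adjustment. Natural killer and cytotoxic genes counted 1 called higher of 9 tested, the granule protein NKG7 (1.61 ± 0.30 in the authors' deposited table). That list had a median of 0.10, with 5 above 0 and 4 below. B and plasma cell markers counted 1 of 6, PRDM1, a transcription factor of plasma cells and other leukocytes (1.62 ± 0.32 in the authors' deposited table). Among these 6 markers, 3 were above 0 and 3 below. Of 7 tested mast cell markers 0 were called by DESeq2 and 2 had an unadjusted p under 0.05. MS4A2, the beta chain of the IgE receptor, averaged 215 in moderate and 355 in mild segments (unadjusted p = 0.0496 and adjusted 0.311, as given in the authors' deposited table).

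Of 21 tested chemokine receptors 6 were called higher and 0 lower, and of 20 tested ligands 4 were called higher and 1 lower, with medians of 0.36 for receptors and 0.29 for ligands. CCR1 averaged 540.3 in moderate and 71.5 in mild segments, 7.61-fold higher by the authors' deposited table. Nearly all of its place on the reference table, 6585 bases, is shared with XCR1, also called higher. How reads in this stretch were assigned is not known here, so the value of CCR1 is uncertain. CXCR4, the receptor of CXCL12, averaged 353 in moderate and 92.3 in mild segments, and the complement C5a receptor C5AR1 averaged 959 in moderate and 358 in mild segments. Among the ligands, the monocyte attractant CCL2 averaged 635 in moderate and 186 in mild segments, and CXCL14 averaged 1421 in moderate and 381 in mild segments. The authors' deposited table gives 1.77 ± 0.43 for CCL2 and 1.90 ± 0.34 for CXCL14. CCL14 was the ligand called lower, with 66.7 in moderate and 168 in mild segments and -1.33 ± 0.40 in the authors' deposited table.

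Leukocyte adhesion genes counted 5 called higher and 1 lower of 18 tested, with a median of 0.40. SELPLG, the selectin ligand by which leukocytes roll on endothelium, averaged 421 in moderate and 95.5 in mild segments, and the integrin chain ITGB2 averaged 1565 in moderate and 510.1 in mild segments. SELE, the selectin of activated endothelium, averaged 68.4 in moderate and 19.3 in mild segments (1.82 ± 0.47 in the authors' deposited table). Of 20 tested coagulation and plasminogen genes 2 were called higher and 2 lower. Coagulation factor F5 averaged 1668 in moderate and 488 in mild segments (1.77 ± 0.29), while F8 averaged 582 in moderate and 833 in mild segments (-0.52 ± 0.16), in the authors' deposited table, and the F8 call is lost under the wider adjustment. Eicosanoid and sphingosine 1-phosphate genes counted 4 called higher and 1 lower of 25. SGPL1, the lyase that degrades sphingosine 1-phosphate, averaged 1741 in moderate and 791 in mild segments (1.14 ± 0.21 in the authors' deposited table), and the phospholipase PLA2G4A averaged 841.5 in moderate and 1229.6 in mild segments.

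In the interleukin-1 family, the receptor and its ligand moved in opposite directions. IL1RL1, the receptor of interleukin 33, averaged 2360.1 in moderate and 516 in mild segments, and IL33 averaged 314 in moderate and 684 in mild segments. The authors' deposited table gives 2.19 ± 0.34 for IL1RL1 (adjusted p = 4.46e-08) and -1.12 ± 0.36 for IL33 (adjusted p = 0.0390). The IL33 call is lost under the wider adjustment (0.0629). Of 19 tested Toll-like receptors and adaptors, 4 were called higher and 1 lower. TLR8 (1.12 ± 0.29) and TLR2 (0.96 ± 0.27) were higher and the flagellin receptor TLR5 (-1.02 ± 0.25) was lower in the authors' deposited table. The place of TLR8 on the reference table shares 3810 bases with TLR7, and how shared reads were assigned is not known here. IKBKE, a kinase of the NF-kappa B and interferon pathways, averaged 71.2 in moderate and 15.5 in mild segments (2.19 ± 0.34 in the authors' deposited table), and 3 of 16 tested NF-kappa B genes were called higher.

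Of 25 tested interferon-stimulated genes DESeq2 called 0, 2 had an unadjusted p under 0.05, and the median was 0.09. MX2, a dynamin-like protein that interferon induces, had the smallest p among them and averaged 417 in moderate and 207 in mild segments (unadjusted p = 0.00592 and adjusted 0.0949, as given in the authors' deposited table). Antigen presentation genes counted 1 called higher of 20 (5%), near the 3.56% of all genes tested. It was SLA-DMB, the pig counterpart of HLA-DMB (1.17 ± 0.32 in the authors' deposited table). Complement genes moved both ways, 3 called higher and 2 lower of 24. C3_1, a numbered copy of complement C3, averaged 11041 in moderate and 5637 in mild segments, while the membrane regulator CD55_2 averaged 117 in moderate and 229 in mild segments. The authors' deposited table gives 0.97 ± 0.26 for C3_1 and -0.96 ± 0.26 for CD55_2.

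Isoforms of glucose-handling genes moved in different directions. Of 24 tested glycolysis genes 5 were called higher and 1 lower, with a median of 0.13. Hexokinase HK2 averaged 548 in moderate and 164 in mild segments (adjusted p = 1.01e-16 in the authors' deposited table), and HK3, the hexokinase of leukocytes, averaged 499 in moderate and 153 in mild segments. The lactate dehydrogenase LDHA averaged 2519 in moderate and 1221 in mild segments, whereas LDHB, the heart-type form, averaged 510.5 in moderate and 1285 in mild segments. These came to 1.05 ± 0.27 for LDHA and -1.33 ± 0.43 for LDHB in the authors' deposited table, with adjusted p of 0.00562 for LDHA and 0.0442 for LDHB. LDHB is no longer called under the wider adjustment (0.0713). It is expressed in heart muscle, whose markers took 0.459% of counts in moderate and 1.68% in mild segments. The part of heart muscle in this fall was not tested. The fructose carrier SLC2A5 averaged 68.9 in moderate and 10.8 in mild segments, and the iron store gene FTL, which codes for the light chain of ferritin, averaged 24014 in moderate and 8481 in mild segments. The authors' deposited table gives 2.69 ± 0.47 for SLC2A5 and 1.5 ± 0.34 for FTL.

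Falls included genes of the inner and outer layers of the wall and of its matrix. Of 17 tested endothelial markers 3 were called lower and 0 higher, with a median of -0.21. PECAM1, the junction protein of endothelium, averaged 2429.6 in moderate and 3922 in mild segments, and it had the smallest adjusted p of all falls with a symbol (-0.69 ± 0.13, adjusted p = 2.15e-05 in the authors' deposited table). ELTD1, an older name of the receptor ADGRL4, averaged 589.7 in moderate and 892 in mild segments. Of 7 tested lymphatic markers 2 were called lower and 0 higher, with a median of -1.02. Both are genes of lymphatic endothelium, MMRN1 with 110.5 in moderate and 315 in mild segments and podoplanin PDPN with 60.7 in moderate and 123 in mild segments. The adjusted p in the authors' deposited table was 0.0364 for MMRN1 and 0.0383 for PDPN, and the wider adjustment gave 0.0587 for MMRN1 and 0.0617 for PDPN.

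Of 16 tested adventitial fibroblast markers, 3 were called lower and 0 higher, with a median of -0.84. The microfibril protein MFAP5 averaged 405 in moderate and 1537 in mild segments, 3.80-fold lower in the authors' deposited table. CLEC3B, which codes for tetranectin, averaged 1017 in moderate and 2466 in mild segments, and PCOLCE2, an enhancer of procollagen processing, averaged 619 in moderate and 1366 in mild segments. The authors' deposited table gives -1.28 ± 0.40 for CLEC3B and -1.14 ± 0.35 for PCOLCE2, and the wider adjustment ended both calls, at 0.0530 for CLEC3B and 0.0514 for PCOLCE2. TN-X, the pig name of tenascin X, had the largest fall in mean among called genes with a symbol, with 4109 in moderate and 10649 in mild segments (-1.37 ± 0.30 in the authors' deposited table). A second entry for tenascin X, TNXB, averaged 2580.3 in moderate and 5938 in mild segments, and reads of this protein may be split between the entries. Adipocyte genes had a median of -0.74, DESeq2 called 0 of 15 tested, and 3 had an unadjusted p under 0.05.

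Of 13 tested collagens DESeq2 called 0, 2 had an unadjusted p under 0.05, and the median was -0.31. COL14A1, a collagen that lies along fibrils, averaged 15923 in moderate and 25864 in mild segments (unadjusted p = 0.0282 and adjusted 0.232, as given in the authors' deposited table). Other matrix genes moved both ways. Periostin, a matricellular protein of injured vessels, had a mean for POSTN of 27329 in moderate and 8088 in mild segments, and thrombospondin 1 a mean for THBS1 of 34088 in moderate and 16033 in mild segments. The authors' deposited table gives 1.76 ± 0.33 for POSTN and 1.09 ± 0.28 for THBS1. The basement membrane genes NID1, which codes for nidogen, and LAMA2, a laminin chain, were lower. NID1 averaged 325 in moderate and 634 in mild segments, and LAMA2 averaged 1333 in moderate and 2559 in mild segments. Their log2 fold changes were -0.96 ± 0.23 for NID1 and -0.94 ± 0.27 for LAMA2 in the authors' deposited table. Among 22 tested proteoglycan and hyaluronan genes 2 were called higher and 3 lower. The rises were the hyaluronan receptor CD44 (1.07 ± 0.20) and syndecan SDC2 (0.95 ± 0.15), and the falls were glypicans GPC1 (-0.85 ± 0.23) and GPC3 (-1.11 ± 0.31) and epiphycan EPYC (-2.0 ± 0.60), in the authors' deposited table.

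Of 22 tested genes of contractile smooth muscle DESeq2 called 0, 6 had an unadjusted p under 0.05, and the median was -0.17. Desmin, an intermediate filament protein of muscle, had a mean for DES of 9019 in moderate and 17623 in mild segments (unadjusted p = 0.00561 and adjusted 0.0912, as given in the authors' deposited table). Heart muscle also makes desmin, its markers took 0.459% of counts in moderate and 1.68% in mild segments, and its part in the DES means was not tested. MYH11 and ACTA2 stood at -0.06 and -0.08 in the authors' deposited table. The signals that pattern the wall changed in single genes. The lymphatic growth factor FIGF, an older name of VEGFD, averaged 82.9 in moderate and 221 in mild segments, and the Wnt antagonist DKK2 averaged 201 in moderate and 503 in mild segments. FIGF was the 1 gene called of 24 growth factor genes (4.17%), and DKK2 that of 27 Wnt and Notch genes (3.70%). Of all genes tested, 1.08% were called lower. The authors' deposited table gives -1.42 ± 0.38 for FIGF and -1.33 ± 0.35 for DKK2. TGFB1 (0.58 ± 0.14), its receptor TGFBR1 (0.65 ± 0.16) and the activin subunit INHBA_2 (1.21 ± 0.31) were called higher of 23 tested genes of the TGF-beta and BMP list, in the authors' deposited table.

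The 11 largest falls, sought in the same way, spanned tubulin, matrix, transport and secretory genes. TUBA8, an alpha tubulin, averaged 35 in moderate and 213 in mild segments, 6.10-fold lower in the authors' deposited table. PRG4, which codes for the lubricant proteoglycan lubricin, averaged 36.3 in moderate and 192 in mild segments, and VWC2L, a secreted protein with a von Willebrand factor C domain, averaged 29.1 in moderate and 152 in mild segments. The cartilage matrix protein CILP averaged 291 in moderate and 1162 in mild segments, 4.0-fold lower in the authors' deposited table. The others were CA14, SCG3, EPYC, SLC7A10, CFTR, MFAP5 and C3H2orf40, at -1.76 ± 0.55 (SLC7A10) to -2.19 ± 0.66 (CA14) in the authors' deposited table. Of these 11 genes, SLC7A10, SCG3 and C3H2orf40 were no longer called under the wider adjustment.

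Heart muscle genes moved both ways without a call, and mitochondrial genes had lower means in moderate segments, with calls in a pair of fatty acid oxidation genes alone. Heart muscle markers took 0.459% of all normalized counts in moderate and 1.68% in mild segments. Of 20 tested, DESeq2 called 0, 6 had an unadjusted p under 0.05, and the median was -2.03. Troponin C, TNNC1, averaged 2615 in moderate and 10994 in mild segments (unadjusted p = 0.00381 and adjusted 0.0705, as given in the authors' deposited table). The standard errors of tested members reach 1.53 on the log2 scale (MB_1, a copy of the myoglobin gene). A further 5 markers had a fold change and no p, which DESeq2 leaves blank where a single library lies far from the rest, and all 5 had higher means in moderate segments. These were the atrial light chains MYL4 (1193 in moderate and 388 in mild segments) and MYL7 (830.4 in moderate and 88.7 in mild segments), the natriuretic peptides NPPA (1757 in moderate and 149 in mild segments) and BNP (8.26 in moderate and 3.85 in mild segments), and sarcolipin SLN (20 in moderate and 4.89 in mild segments). Ventricular genes such as MYH7 (12849 in moderate and 70686 in mild segments) and the ventricular light chain MLC2V (2142 in moderate and 21894 in mild segments) were among the markers with lower means.

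The 13 mitochondrially encoded genes took 0.870% of counts in moderate and 1.70% in mild segments. All 13 had a log2 fold change below 0 (median -0.90) and an unadjusted p under 0.05, and DESeq2 called 0 at the adjusted threshold. ATP6, a subunit of the ATP synthase, averaged 3437 in moderate and 7629 in mild segments (adjusted p = 0.0837 in the authors' deposited table). The list of nuclear oxidative phosphorylation genes holds 33 symbols, a part of that pathway, and its 23 tested members were below 0 as well. Their median was -0.87, with 0 called by DESeq2 and 21 with an unadjusted p under 0.05. The tested genes of the fatty acid oxidation list had a median of -0.63 with 2 of 21 called lower. The calls were ACADL, an acyl-CoA dehydrogenase (735 in moderate and 1542 in mild segments), and ECI1, an isomerase of unsaturated fatty acids (156 in moderate and 331 in mild segments). Heart muscle is rich in mitochondria, its markers took 0.459% of counts in moderate and 1.68% in mild segments, and its part in these means was not tested.

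**Figure D4:**
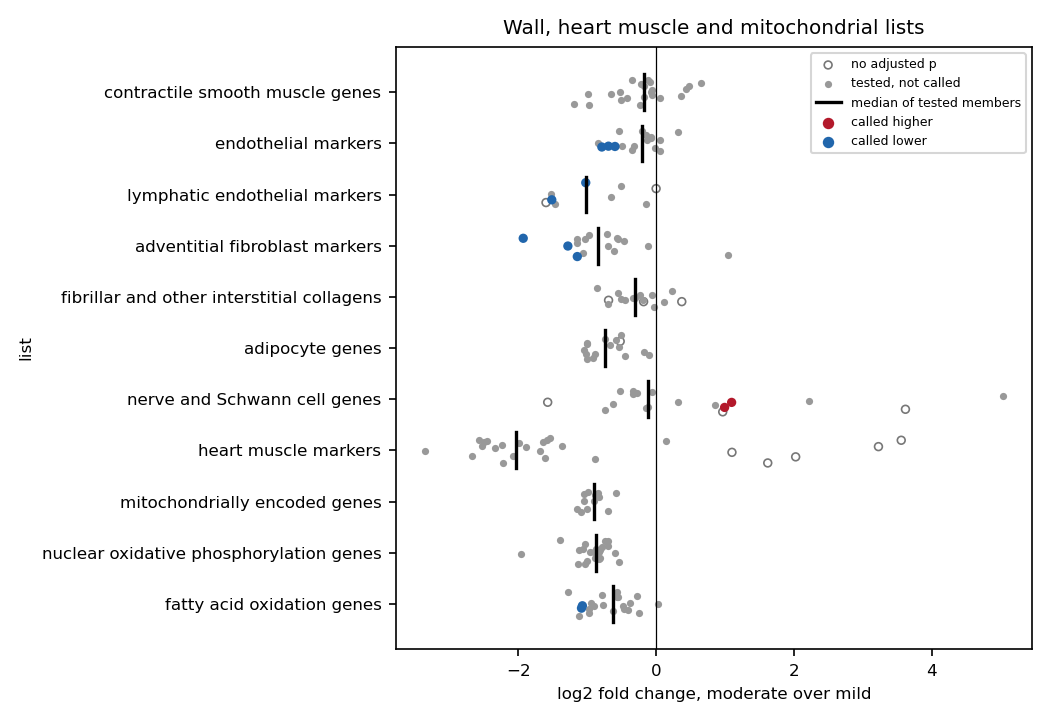
Log2 fold change of moderate over mild segments (horizontal axis) of each member of 11 lists of the artery wall, heart muscle and mitochondria, with called genes in colour, tested genes that were not called in grey, genes with no adjusted p as open circles and the median of tested members as a bar. The medians run from -0.11 for nerve genes to -2.03 for heart muscle markers, and the 5 open circles of heart muscle lie above 0.

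The levels in severe segments without diabetes, given in the order mild, moderate and severe, place these changes along the grades. This comparison shares the moderate libraries, so the values are set side by side without a count. The labels of 1 of the 5 severe libraries disagree, since its title puts it among severe segments without diabetes and another field gives a moderate lesion with diabetes, so the severe means may hold a library of another group. MMP9 averaged 67.2, 2351 and 3909.8 normalized counts in mild, moderate and severe segments, CHI3L1 averaged 154, 4244 and 4662, and POSTN averaged 8088, 27329 and 27333. The log2 fold changes of severe over moderate segments were 0.73 ± 0.43 for MMP9, 0.14 ± 0.43 for CHI3L1 and 0.00 ± 0.31 for POSTN in the authors' deposited table, none of them called. GPNMB averaged 138, 1465 and 2635 and LYZ averaged 3468, 29406 and 49312 in the same order. Severe over moderate was not called for GPNMB (0.85 ± 0.35) or LYZ (0.75 ± 0.49) in the authors' deposited table. TCN1 averaged 20.6, 178 and 752, and its severe over moderate value of 2.08 ± 0.50 had an adjusted p of 0.0786 in the authors' deposited table.

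Other genes had their highest mean without diabetes in the moderate group. S100A12 averaged 2.90, 114 and 27.2 in mild, moderate and severe segments and ARG1 averaged 5.49, 129.6 and 28.6. S100A8 averaged 1.41, 25.3 and 7.18 and CCL2 averaged 186, 635 and 339.7. Severe over moderate stood at -2.06 ± 0.61 for S100A12 (adjusted p = 0.377) and -2.18 ± 0.71 for ARG1 (adjusted p = 0.523) in the authors' deposited table, so these drops were not called. Neither were those of S100A8 (-1.82 ± 0.71) and CCL2 (-0.90 ± 0.41) in the authors' deposited table. MFAP5 averaged 1537, 405 and 337 in mild, moderate and severe segments, and PECAM1 averaged 3922, 2429.6 and 2618.

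**Figure D5:**
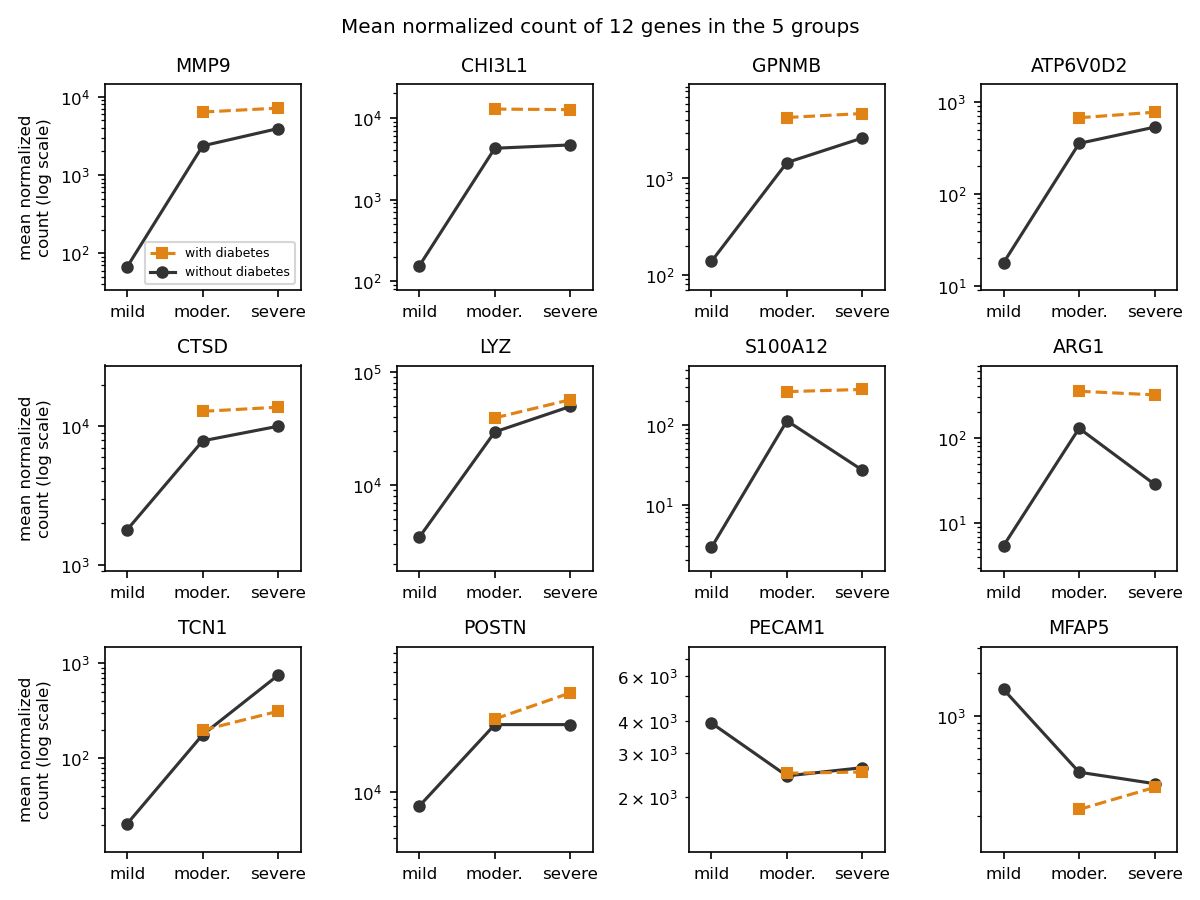
Mean normalized count (vertical axes, log scale) of 12 genes in mild, moderate and severe segments, with squares for segments with diabetes (moderate and severe alone) and circles for those without, each point the authors' mean of a group. MMP9, CHI3L1, GPNMB, ATP6V0D2, CTSD and LYZ stand higher in moderate and severe than in mild segments, S100A12 (114) and ARG1 (129.6) peak at the moderate grade without diabetes, and PECAM1 (3922) and MFAP5 (1537) are highest in mild segments.

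In moderate segments with diabetes the means of several of these genes stood further from mild segments. MMP9 averaged 6348 normalized counts in moderate segments with diabetes and 2351 in moderate segments without (1.43 ± 0.41, adjusted p = 0.00607 in the authors' deposited table). CHI3L1 averaged 12816 with diabetes and 4244 without, and CCR1, whose place overlaps that of XCR1, averaged 1463 with diabetes and 540.3 without. Not every rise followed that order. The calcitonin receptor CALCR averaged 202 in moderate segments with diabetes and 365 in those without (-0.85, adjusted p = 0.00653 in the authors' deposited table), and MMP12 averaged 47.5 with diabetes and 76.0 without, a difference that was not called (adjusted p = 0.572 in the authors' deposited table).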

How the data were processed

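Poly-A selected RNA of coronary segments was sequenced. The authors deposited 1 table per comparison. Its mean normalized counts per group (the signal values used here), log2 fold changes with standard errors and p-values come from DESeq2, per the file headers and the submitters' processing notes, which name the build Sscrofa11.1. The severe against moderate table also holds a deposited test statistic (a score), which was not used, and the moderate against mild table holds none. Which aligner, counting tool, annotation and DESeq2 version they used is not given in the sources used here.

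Each table holds results of the authors' fit and no values of single libraries, so no model was refitted, and the authors' adjusted p under 0.05 was the call. Their Wald p-values were recomputed from fold and error and differed by at most 4.22e-15. Python 3.11.15 with pandas 2.3.3, numpy 2.4.6, scipy 1.17.1 and matplotlib 3.10.9 was used for the counts, list summaries, approximate depths from steps among the lowest means, and the variation between libraries solved from the standard errors. The code was tested on simulated data.

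Of 35228 genes, 30151 had a p and 18561 an adjusted p. The 70 gene lists hold 1474 symbols, of which 1353 matched a gene of the table, 1253 were tested and 199 were called. Numbered copies such as LGALS3_1 may split the reads of 1 gene. Places come from the RefSeq gene table of the same build, and 61 of the 201 called genes among the 236 eligible for naming overlap another gene there. Named genes were the 12 largest rises and 12 largest falls (11 of them shown) that have a symbol and average 20 or more normalized counts, the 10 of smallest adjusted p in each direction, the 10 largest differences of means, up to 6 called members per list and direction (2 of smallest p where none was called) and the smooth muscle and endothelial checks. CD36, CD5L, MB_1, MYH7, MLC2V, TNXB, SDCBP and the heart muscle genes without a p lie outside that rule and were chosen after their values were seen. The comparison, the lists and the naming rule were chosen with earlier results of these data known. Alternatives were stricter thresholds, filters on low means, other scalings, a wider adjustment and leaving out numbered copies. A few genes that the rule names are not reported here. Promoter sequences were not analysed here.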

Additional observations from a re-analysis of the deposited data

How the results depend on the processing

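No paired analysis was possible because the tables hold group results and no value per library, and for the same reason leaving out each replicate was not run. At an adjusted p under 0.01 in place of 0.05, 480 of the 860 genes remained called, 430 higher and 50 lower. With a change of at least 2-fold required as well, 492 remained, 378 higher and 114 lower. With the adjustment run over all 30151 genes that had a p, 576 were called higher and 120 lower in place of 660 and 200. Filters on the mean, other scalings and leaving out numbered copies gave totals of 734 to 903. Rescaling to equal sums gave 747 higher and 156 lower, with a shift of -0.0362 on the log2 scale. Of 201 called genes eligible for naming, 20 lost their call under the wider adjustment, 7 under equal sums, 3 under equal sums without heart muscle and mitochondrially encoded genes and 2 after recentring, and none changed direction. The cause was not tested. Near the threshold, 84 genes were called at an adjusted p of 0.04 or more and 76 missed it at under 0.06. Genes with means of a few counts carry wide errors, and for these a missed call says little.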

Other observations

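Several called genes lie side by side in the genome (build Sscrofa11.1, pairs chosen after their values were seen). The calgranulin genes S100A8, S100A12 and S100A9 lie within chr4:96209670-96238989, and cathepsins CTSK and CTSS within chr4:98389459-98442952. The receptors OLR1 and CLEC7A lie within chr5:61799356-61846441. BAX, which promotes apoptosis, and FTL, the ferritin light chain, lie within chr6:54222341-54232756. In the authors' deposited table all of these were called higher. GNPTAB, which helps to tag lysosomal enzymes, shares 33003 bases with DRAM1, a lysosomal membrane protein of autophagy that averaged 738 normalized counts in moderate and 301 in mild segments, and how shared reads were assigned is not known here.

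Nerve and Schwann cell genes had 2 called higher of 15 tested (13.3%, against 3.56% of all genes tested). The median of the list was -0.11, with 6 tested members above 0 and 9 below. L1CAM, an adhesion molecule of neurons and some leukocytes, averaged 372 in moderate and 173 in mild segments (1.10 ± 0.26 in the authors' deposited table), and the myelin basic protein gene MBP averaged 711.8 in moderate and 357.5 in mild segments (0.99 ± 0.25 in the authors' deposited table). Circadian and glucocorticoid-responsive genes counted 2 called higher and 1 lower of 17 tested (11.8% and 5.88%, against 3.56% and 1.08% of all genes tested). Their median was -0.30, with 6 above 0 and 11 below. The clock gene ARNTL, which codes for BMAL1 and was called higher, averaged 166 in moderate and 69.6 in mild segments, 1.25 ± 0.34 in the authors' deposited table. The part of sampling time in this difference was not tested. Of 26 tested cell cycle genes 1 was called higher (3.85%), close to the 3.56% of all genes tested. It was the cell cycle inhibitor CDKN1A, with 910.2 in moderate and 461 in mild segments.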
